A study of Mus musculus with 12 samples.

Results

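The chemokines and chemokine receptors were examined in whole small intestine of transplanted mice given the bile acid TUDCA or its vehicle. Members were taken by name and not by a threshold on their values, although the family was picked with earlier results of these data known. They were the probe sets annotated to exactly 1 gene with a symbol of the form Ccl, Cxcl, Ccr, Cxcr, Xcl or Xcr followed by a number, or to Cx3cl1 or Cx3cr1, and the rule left out Ccl25 and Ccr9. This gave 51 probe sets for 50 genes, of 23991 probe sets and 21408 genes on the arrays. They comprised 34 probe sets of ligands and 17 of receptors, and every member entered the test, since no filter on low values was used. Ccl27a had 2 probe sets and each other gene had 1. The chemokine genes Ccl19, Ccl21a, Ccl21b, Ccl21c and Ccl27b are not analysed here.

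Chemokines are small secreted or membrane-tethered proteins that guide leukocytes along concentration gradients by binding receptors coupled to G proteins. The receptors are mostly carried by leukocytes, while the ligands come from epithelium, stroma, endothelium and the leukocytes themselves. Transfer of T cells across strains gives graft-versus-host disease, an attack of donor T cells on host organs, in which ligands of CXCR3 are known for drawing effector T cells into the gut.

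Both groups were wild-type BALB/c recipients that had received total body irradiation followed by bone marrow and T cells of C57BL/6N donors, and tissue was taken on day 14. The treated group (6 arrays) was given 200 mg/kg tauroursodeoxycholic acid (TUDCA), a taurine-conjugated bile acid also used as a chemical chaperone, by daily injection into the peritoneum. The vehicle group (6 arrays) was given the same volume, 200 µl, without it. The tissue holds both recipient and donor cells, and no untransplanted or syngeneic arrays were used here.

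Values are log2 expression after RMA (background correction, quantile normalisation and summary of probes), and 1 unit is a doubling. The arrays had nearly the same median (5.93 over all) and correlated with one another between 0.984 and 0.993 over all probe sets. The labels number the samples, and the numbers form a low range (under 100; 2 TUDCA and 4 vehicle arrays) and a high range (over 100; 4 TUDCA and 2 vehicle arrays). The meaning of the ranges is not stated, and limma estimated every difference within them. The number of arrays limits the precision, and the p-values take each array as a separate mouse. A description field of the labels names CXCL12-abundant reticular cells, a stromal cell of bone marrow, whereas the source and tissue fields name small intestine. The epithelial genes Epcam (12.04 with TUDCA and 12.12 with vehicle) and Vil1 (12.12 and 12.23) were brighter than 99.8% of all probe sets. The reticular cell genes Foxc1 (4.61 and 4.50) and Ebf3 (5.86 and 5.76) lay below the median of all probe sets. Lepr (6.44 and 6.64) and Cxcl12 (7.70 and 7.72) lay above it. Of 14 measured fibroblast, smooth muscle and reticular cell genes, only 2 lay below that median. Probe sets differ in their affinity, so these positions are only a coarse check of the tissue, and the members are not ordered by level. TUDCA replicate 2, 1 of only 2 treated arrays in the low range, was the lowest of the 12 arrays for 17 of 51 members, or 33.3%, against 8.69% of all probe sets. Among the 27 members at or above the median brightness it was the lowest for 12, or 44.4%, against 7.99%, so the main results are also given without it.

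With TUDCA, 1 member of 51 differed from vehicle, the T cell chemokine Ccl5, which fell. After Benjamini-Hochberg adjustment over all probe sets in limma, 1.96% of the members and 2.52% of all probe sets passed, so the share of members was near that of the arrays as a whole. By direction, 0 members were higher against 1.00% of all probe sets, and 1 member was lower against 1.52%. At an unadjusted p under 0.05, 1 member was higher (Ccl9) against 7.24% of all probe sets, and 8 members, or 15.7%, were lower against 6.84%. These 8 were Ccl5, Cxcl14, Cx3cl1, Ccl3, Cxcl10, Cxcl9, Ccl4 and Ccl6, all of them ligands. Without TUDCA replicate 2 the count of such lower members was 4, or 7.84%, against 5.98% of all probe sets, so their share was then near that of the arrays as a whole. The high range alone also gave 4 (7.84%, against 4.67%), and the fit without the number range gave 5 (9.80%, against 7.24%).

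The fitted difference was below 0 for 36 of 51 members, or 70.6%, and for 46.7% of all probe sets. The median member difference was −0.14, compared with 0.01 over all probe sets. Ligands had a median of −0.15 and receptors of −0.06. Of the 17 receptors 12 lay below the median brightness of the arrays, against 12 of the 34 ligands, so this contrast is mixed with brightness. Members at or above the median brightness of the arrays (5.93), 27 in number, had a median of −0.19, and the 24 dimmer ones of −0.04. Of the brighter 27, 1 was called (3.70%), against 4.57% of the brighter probe sets in either direction and 2.88% in the lower one. At an unadjusted p under 0.05, 8 of them were lower (29.6%), against 10.7% of the brighter probe sets. In no member were the values of the groups fully separated, a state that 1.18% of all probe sets reached in the lower and 0.800% in the higher direction.

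**Figure D1:**
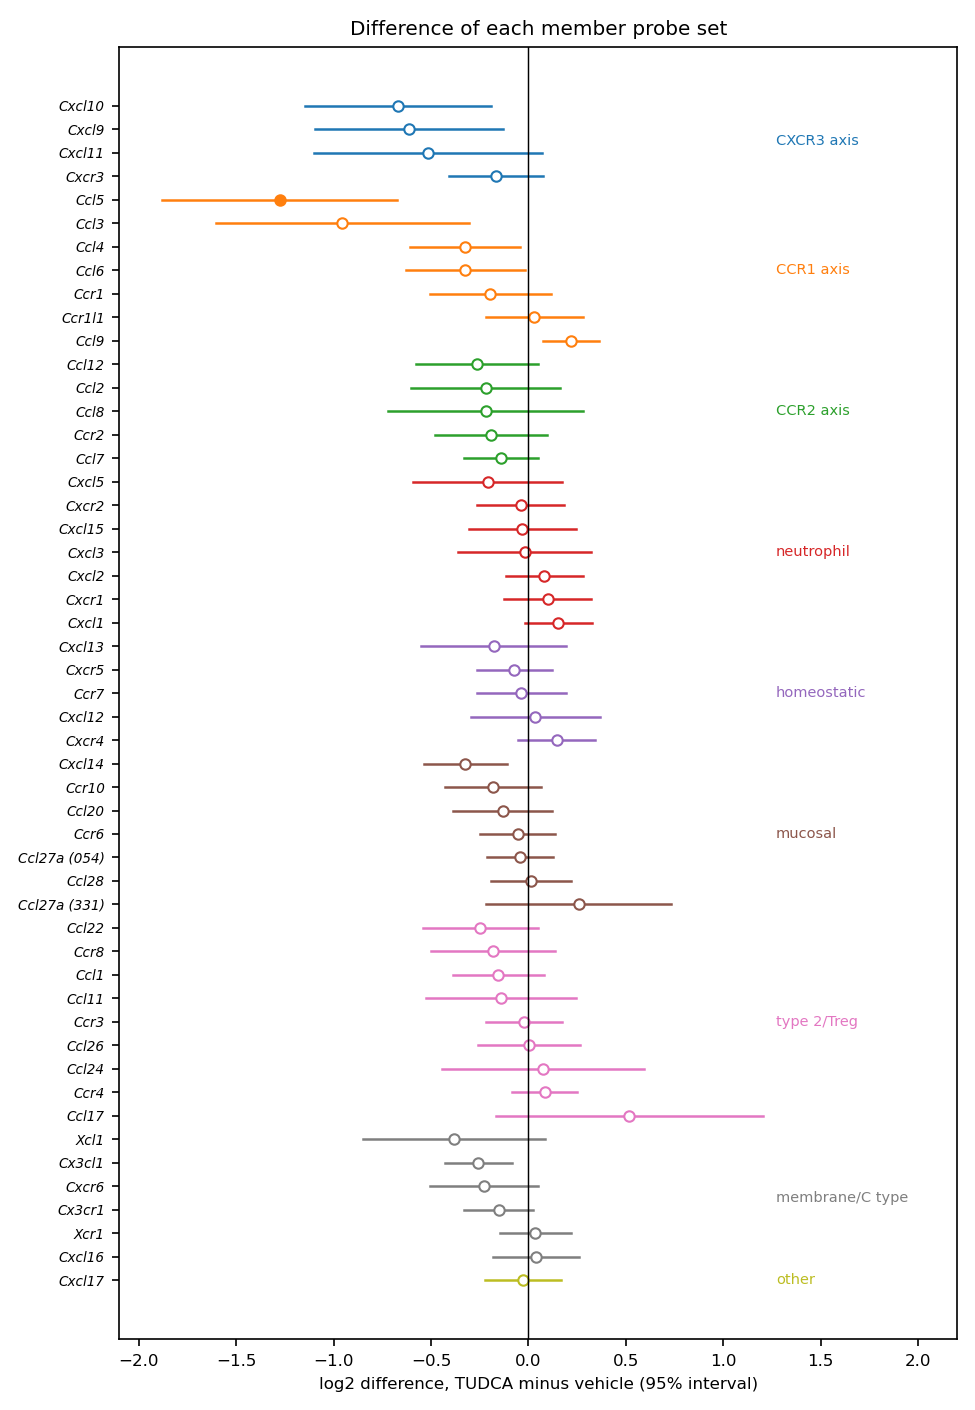
Fitted log2 difference (TUDCA minus vehicle) of each of the 51 member probe sets with its 95% interval, grouped and coloured by role; the filled point is the member that passed the adjusted threshold. Ccl5 lies farthest to the left at −1.28, and 36 of the 51 points lie below 0.

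Ccl5 (RANTES, probe set 17266946), a chemokine made by activated T and NK cells that acts on CCR1 and CCR3 among others, fell with TUDCA. On the TUDCA arrays its level was 8.82, 7.39, 9.30, 9.94, 9.21 and 9.03 for replicates 1 to 6. On the vehicle arrays it was 9.74, 9.61, 9.92, 10.60, 10.14 and 9.97. Every TUDCA array lay below the vehicle mean of its own number range, but replicate 4 lay above the lowest vehicle arrays, so the groups overlapped. In the high range that mean rests on only 2 vehicle arrays. How many of all probe sets had every TUDCA array on 1 side of it was not counted, here or for other members. The medians were 9.12 with TUDCA and 9.95 with vehicle, and the SD was 0.85 and 0.35 (n = 6 each). The fitted difference was −1.28 ± 0.28 (SE), a level 2.42-fold lower with a 95% interval from −1.88 to −0.67 in log2 units (limma, adjusted p = 0.0265).

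The difference in Ccl5 was −1.87 in the low range and −0.69 in the high range, and the interaction between treatment and range had an unadjusted p of 0.0306 and an adjusted p of 0.603 (limma). The call was lost without the number range as a term (−1.05, adjusted p = 0.102), with robust variances (adjusted p = 0.104), in the high range alone (adjusted p = 0.337), and without TUDCA replicate 1 (adjusted p = 0.0588), TUDCA replicate 2 (−0.86, adjusted p = 0.0669) or vehicle replicate 3 (adjusted p = 0.0526), and without TUDCA replicates 1 and 2 together (−0.69, adjusted p = 0.359). Over 25 alternatives the adjusted p ran from 0.0100 to 0.359, and Ccl5 passed in 18 of them. The omission of TUDCA replicates 1 and 2 together, which gave the 0.359, was chosen after seeing the data. The alternatives share most of their arrays, so they are not independent checks.

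The other measured genes of the group of CCR1 and inflammatory CC ligands did not pass in the fit with the number range. Ccl3 (MIP-1 alpha), an inflammatory ligand of CCR1, ranged from 5.58 to 7.54 with a median of 6.93 on the TUDCA arrays and from 7.18 to 8.65 with a median of 7.57 on the vehicle arrays. TUDCA replicate 2 was the lowest array and vehicle replicate 4 the highest, and the groups overlapped. The fitted difference of Ccl3 was −0.96 ± 0.30 (SE, limma, adjusted p = 0.138). It was −1.77 in the low range and −0.14 in the high range (interaction unadjusted p = 0.00256, adjusted p = 0.516), and −0.55 without TUDCA replicate 2. Ccl3 passed in the low range alone (adjusted p = 0.033) and when replicate numbers formed a block in place of the number range (adjusted p = 0.0232). Ccl4 (MIP-1 beta), a related inflammatory ligand, ranged from 5.78 to 6.66 (median 6.21) with TUDCA and from 6.25 to 6.74 (median 6.42) with vehicle. TUDCA replicates 1, 2 and 3 lay below every vehicle array and the other treated arrays among them. The difference was −0.33 ± 0.13 (SE, adjusted p = 0.274), at −0.63 in the low range, where it passed when that range was fitted alone (adjusted p = 0.0457), and −0.02 in the high range.

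Ccl6, a rodent ligand of CCR1, had a median of 9.13 with TUDCA (9.02 to 9.50) and of 9.47 with vehicle (9.03 to 10.04). Every TUDCA array was below the vehicle mean of its range, the difference was −0.33 ± 0.14 (SE, adjusted p = 0.323), and it was −0.32 and −0.33 in the low and high ranges. Ccl9 (MIP-1 gamma), also a rodent ligand of CCR1, lay the other way, with a median of 9.17 with TUDCA (9.05 to 9.37) and of 8.96 with vehicle (8.70 to 9.05). All 6 TUDCA arrays were above the vehicle mean of their range and only the highest vehicle array overlapped with the lowest TUDCA array. The difference of Ccl9 was 0.22 ± 0.07 (SE, adjusted p = 0.123), with 0.19 in the low and 0.25 in the high range, and it passed with the block in place of the number range (adjusted p = 0.0394). The receptor Ccr1 differed by −0.19 (adjusted p = 0.613) and the receptor-like gene Ccr1l1 by 0.03 (adjusted p = 0.947). In RefSeq order (GRCm38.p6), Ccl5, Ccl9, Ccl6, Ccl3 and Ccl4 are consecutive protein-coding genes, so the single member with an unadjusted p under 0.05 in the higher direction sits beside the one that fell.

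**Figure D2:**
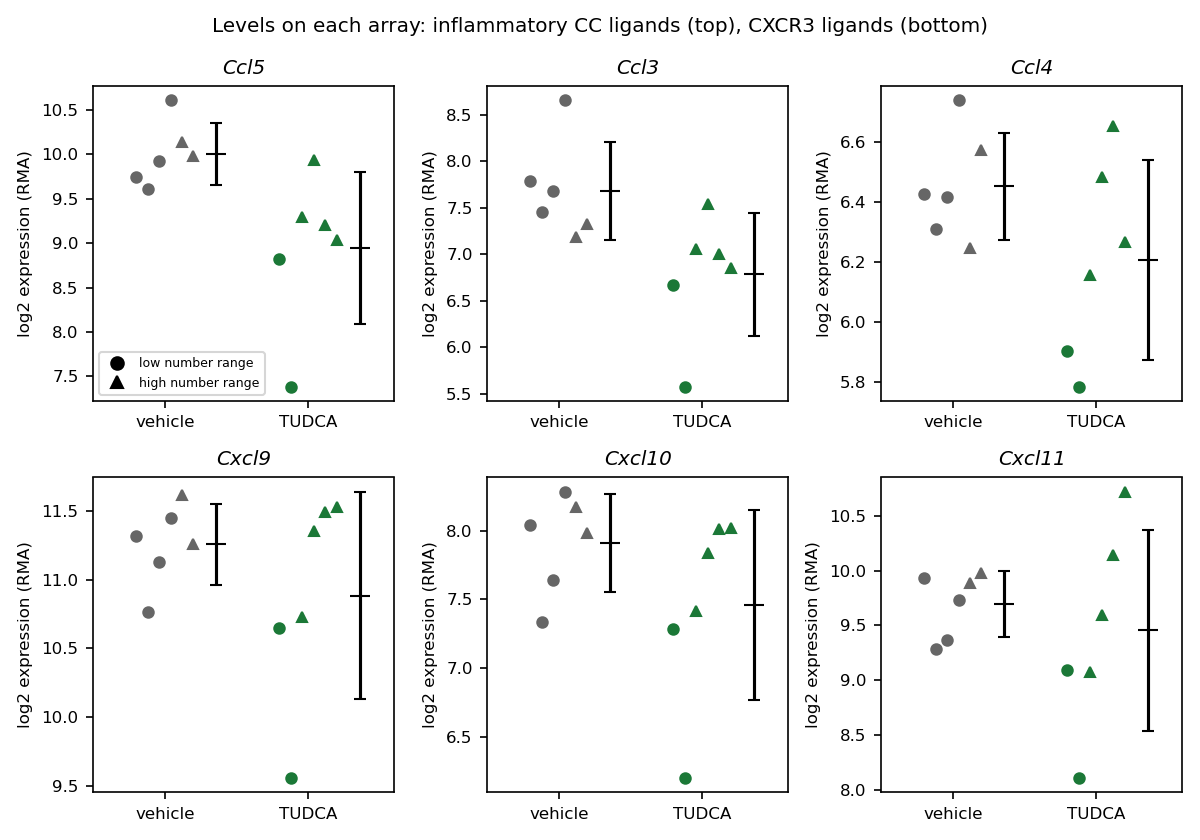
Log2 expression of Ccl5, Ccl3 and Ccl4 (top) and of Cxcl9, Cxcl10 and Cxcl11 (bottom) on each vehicle (grey) and TUDCA (green) array, with circles for the low and triangles for the high number range, and bars for the mean and SD (n = 6). TUDCA replicate 2 is the lowest array in all 6 panels, at 7.39 for Ccl5 and 9.55 for Cxcl9.

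Ccl5 is a product of cytotoxic lymphocytes, and genes of those cells moved in the same comparison. Of 19 measured T and NK cell genes, 7 fell and 0 rose (limma; Cd3e −0.93, Cd3g −0.96, Cd8a −1.03, Cd8b1 −0.67, Lat −0.51, Gzma −1.97 and Gzmb −1.55). Of all probe sets, 1.52% fell and 1.00% rose past the same threshold, shares that also belong beside the marker lists below. Among the brighter probe sets 2.88% fell, and 4 of the 19 genes were dimmer. The mean level of the list ran from 5.69 to 6.75 on the TUDCA arrays, lowest on replicate 2, and from 6.53 to 7.14 on the vehicle arrays. Values of these genes without that replicate are not given here. In whole tissue, fewer cells of a type and less RNA per cell cannot be told apart, and the part of T and NK cells in the Ccl5 result was not tested. Across the 12 arrays, the level of Ccl5 went with that of Cd8a, a coreceptor of cytotoxic T cells (Pearson r = 0.90, permutation p = 0.00042, adjusted over 6 pairs 0.00126; Spearman rho = 0.78, permutation p = 0.00476, adjusted 0.0143). Without the 2 arrays farthest from the median of Ccl5, TUDCA replicate 2 and vehicle replicate 4, r was 0.70 (permutation p = 0.027). Within the low range, which holds TUDCA replicate 2, r was 0.99 (exact p = 0.0111, n = 6). Within the high range it was 0.79 (exact p = 0.0694, n = 6). All these values pool both groups, and both genes were lower with TUDCA, so the shift between the groups enters r. The correlation within a treatment was not computed.

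The 3 ligands of CXCR3 and the receptor were all lower with TUDCA by the fitted value, with a median of −0.56, and none of the 4 passed in limma (2 at an unadjusted p under 0.05, Cxcl10 and Cxcl9). Fitted values below 0 were found for 46.7% of all probe sets. CXCR3 is the main trafficking receptor of Th1 and cytotoxic T cells, and Cxcl9, Cxcl10 and Cxcl11 are induced by interferon gamma. Cxcl9 ranged from 9.55 to 11.53 with a median of 11.04 on the TUDCA arrays and from 10.76 to 11.62 with a median of 11.29 on the vehicle arrays. TUDCA replicates 1, 2 and 3 lay below every vehicle array, and replicates 4 to 6 lay among the upper vehicle arrays. The difference of Cxcl9 was −0.61 ± 0.22 (SE, adjusted p = 0.208), with −1.06 in the low and −0.16 in the high range, and −0.30 without TUDCA replicate 2.

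Cxcl10 ranged from 6.20 to 8.02 (median 7.62) with TUDCA and from 7.33 to 8.28 (median 8.01) with vehicle. All 6 TUDCA arrays were below the vehicle mean of their range, but only replicates 1 and 2 were below every vehicle array. Its difference was −0.67 ± 0.22 (SE, adjusted p = 0.161), with −1.08 in the low and −0.26 in the high range, and −0.36 without TUDCA replicate 2. Cxcl11 ranged from 8.11 to 10.72 with TUDCA (median 9.34) against 9.28 to 9.98 with vehicle (median 9.81). TUDCA replicate 2 was the lowest of all arrays and TUDCA replicate 6 the highest. The difference of Cxcl11 was −0.52 ± 0.27 (SE, adjusted p = 0.431). Cxcr3 itself ranged from 5.89 to 6.41 (median 6.04) with TUDCA and from 5.91 to 6.48 (median 6.25) with vehicle, with overlapping groups and a difference of −0.17 ± 0.11 (SE, adjusted p = 0.565).

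The levels of Cxcl9 and Cxcl10 varied together over the arrays. Pearson's r across the 12 arrays was 0.98 (permutation p = 2e-05, the smallest that 100000 resamples can give, adjusted 0.00012) and Spearman's rho was 0.88 (permutation p = 0.00028, adjusted 0.00168). Without TUDCA replicates 1 and 2, the farthest from the median of Cxcl9, r was 0.92 (permutation p = 0.00108). It was 0.99 within the low range (exact p = 0.00278, n = 6) and 0.96 within the high range (exact p = 0.025, n = 6). Cxcl9 with Ifng, the gene of interferon gamma, gave r = 0.74 (permutation p = 0.00364, adjusted 0.00728) and rho = 0.59 (permutation p = 0.0477, adjusted 0.0573). Without TUDCA replicates 1 and 2 r was 0.55 (permutation p = 0.0971). It was 0.80 within the low range, which holds those arrays (exact p = 0.0111, n = 6), and 0.38 within the high range (exact p = 0.544, n = 6). Cxcl9 with Cxcr3 gave r = 0.60 (permutation p = 0.0266, adjusted 0.0399) and rho = 0.61 (permutation p = 0.0391, adjusted 0.0573), with r = 0.62 without those arrays (permutation p = 0.0673). It was 0.71 in the low range (exact p = 0.0583, n = 6) and 0.53 in the high range (exact p = 0.361, n = 6). Each r here pools both groups. Cxcl9, Cxcl10, Ifng and Cxcr3 all had lower fitted values with TUDCA, so the shift between the groups enters r. For these pairs too, the correlation within a treatment was not computed.

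**Figure D3:**
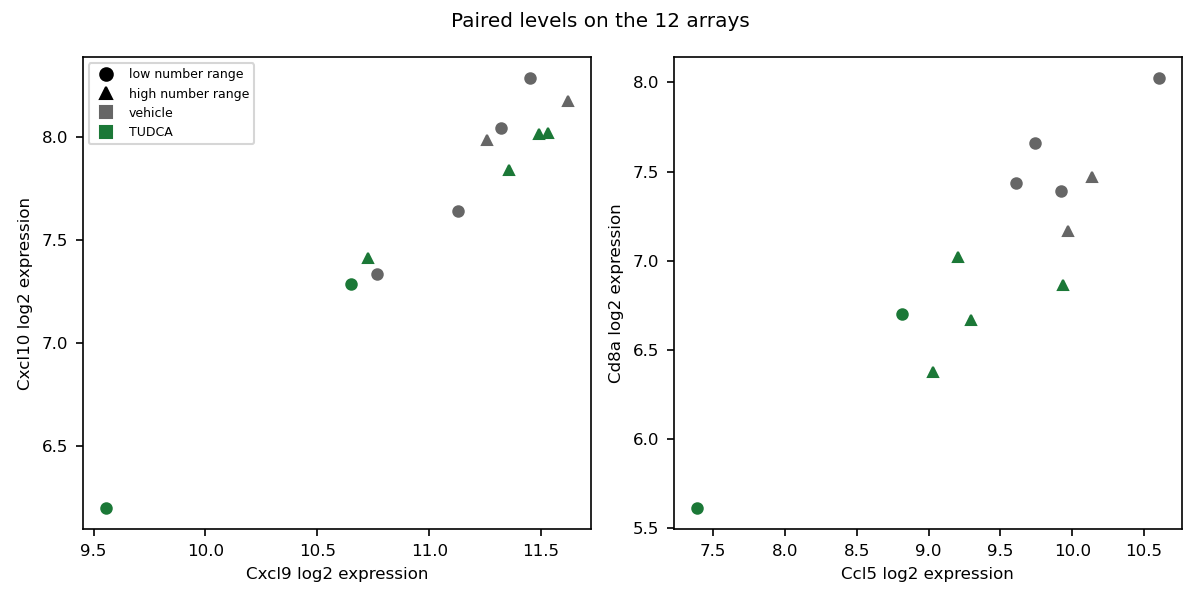
Log2 expression of Cxcl10 against Cxcl9 (left) and of Cd8a against Ccl5 (right) on the 12 arrays, grey for vehicle and green for TUDCA, circles for the low and triangles for the high number range. The points follow a line in both panels (r = 0.98 and 0.90), and TUDCA replicate 2 lies alone at the lower left of each.

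The promoters of Cxcl10 and Cxcl9, the pair with the highest correlation of those computed, are shown to compare the response elements they hold. Each sequence is the 250 bases before the gene's start from RefSeq (GRCm38.p6, minus strand, printed 5′ to 3′), with matches to the searched motifs in capitals.
Cxcl10, chr5:92348890-92349139: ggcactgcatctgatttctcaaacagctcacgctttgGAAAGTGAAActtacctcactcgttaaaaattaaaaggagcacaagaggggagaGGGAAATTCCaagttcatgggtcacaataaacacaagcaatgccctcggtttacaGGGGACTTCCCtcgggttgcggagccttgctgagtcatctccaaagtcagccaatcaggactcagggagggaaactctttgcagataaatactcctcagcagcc
Cxcl9, chr5:92328080-92328329: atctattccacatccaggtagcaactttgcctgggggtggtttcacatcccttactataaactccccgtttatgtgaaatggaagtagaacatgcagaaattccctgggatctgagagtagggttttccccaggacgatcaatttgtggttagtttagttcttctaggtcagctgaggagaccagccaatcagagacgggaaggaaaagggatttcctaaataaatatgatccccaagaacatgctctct

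Both strands were searched for the interferon-stimulated response element (ISRE, TTTC repeated after any 2 bases), the gamma-activated site (GAS, TTCNNNGAA) and the NF-kappaB consensus. The Cxcl10 window held an ISRE match at −213 to −204, an NF-kappaB match at −159 to −150, and overlapping NF-kappaB matches at −104 to −95 and −103 to −94, counted from the base before the start. The Cxcl9 window held none of the 3, which says only that these letters are absent from that window. Of 32851 promoter windows of this length, 2.98% held the ISRE, 7.02% the GAS and 7.25% the NF-kappaB motif. Promoters of 36 of the 50 member genes were in the table. Of these, 2 held the ISRE (Cxcl10 and Cxcl14), 4 the GAS (Ccl17, Ccr1l1, Ccr6 and Cxcl14) and 10 the NF-kappaB motif (Ccl1, Ccl20, Ccl9, Ccr1, Ccr3, Ccr6, Cxcl1, Cxcl10, Cxcl2 and Cxcl3). A gene was counted if any of its windows matched, whereas the percentages count single windows, so they are not on the same scale. All are matches of letters, not sites shown to be bound.

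The monocyte-attracting ligands and their receptor CCR2, which brings monocytes out of bone marrow and into inflamed tissue, gave values below 0 for 5 of 5 members with a median of −0.22. Of all probe sets, 46.7% were below 0. In the high range alone Ccl8 (0.07) and Ccr2 (0.06) lay above 0, and without TUDCA replicate 2 Ccl8 was at −0.02. None of the 5 passed in limma, and none had an unadjusted p under 0.05. Ccl2 (MCP-1) ranged from 5.96 to 6.91 (median 6.14) with TUDCA and from 5.84 to 6.87 (median 6.48) with vehicle, so the groups spanned the same levels. Its difference was −0.22 ± 0.18 (SE, adjusted p = 0.652). Ccr2 differed by −0.19 ± 0.13 (SE, adjusted p = 0.58), from 5.77 to 6.67 with TUDCA (median 6.26) and from 6.01 to 6.67 with vehicle (median 6.35). Ccl7, Ccl8 and Ccl12 differed by −0.14, −0.22 and −0.27 (adjusted p from 0.455 to 0.746). Of 19 macrophage and dendritic cell genes 1 fell, the clearance receptor gene Mertk (by 0.67), and at an unadjusted p under 0.05 (limma) 3 were lower and 1 higher. The list mean ran from 6.98 to 7.43 on the TUDCA and from 7.29 to 7.60 on the vehicle arrays. The part of these cells in the values was not tested.

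The neutrophil-attracting ligands and their receptors CXCR1 and CXCR2 all lay below the median brightness of the probe sets, where array differences are often compressed. The median over the 7 members was −0.02, none passed in limma, and none had an unadjusted p under 0.05. Cxcl1 (KC) ranged from 5.18 to 5.55 (median 5.31) with TUDCA and from 5.08 to 5.32 (median 5.15) with vehicle. Every TUDCA array was above the vehicle mean of its range, by a fitted 0.15 ± 0.08 (SE, adjusted p = 0.428). Cxcl2 (MIP-2) ranged from 4.35 to 4.90 (median 4.60) with TUDCA and from 4.35 to 4.63 (median 4.49) with vehicle, a difference of 0.08 ± 0.09 (SE, adjusted p = 0.768). Cxcl5 (LIX) ranged from 4.39 to 5.47 (median 4.88) with TUDCA and from 4.68 to 5.50 (median 4.91) with vehicle, a difference of −0.21 ± 0.18 (SE, adjusted p = 0.671). The groups overlapped in both genes. The receptor Cxcr1 lay between 5.74 and 6.33 (median 5.78) with TUDCA and between 5.55 and 5.84 (median 5.75) with vehicle, and differed by 0.10 ± 0.10 (SE, adjusted p = 0.744). Cxcl3 (−0.02), Cxcl15 (−0.03) and Cxcr2 (−0.04) had adjusted p of 0.914 or more. Of 13 neutrophil genes 1 rose, Ly6g, a surface marker of mouse neutrophils, by 1.26 to a level of 6.03 from 4.78. S100a8 and S100a9, abundant neutrophil cytoplasmic proteins, were at 3.72 and 4.05 with TUDCA and at 3.62 and 3.93 with vehicle, and the list mean ran from 4.87 to 5.00 and from 4.76 to 5.03. Cxcl1 with Ly6g gave r = 0.45 (permutation p = 0.13, adjusted 0.155) and rho = 0.62 (permutation p = 0.0339, adjusted 0.0573), with r = 0.32 without TUDCA replicates 1 and 4 (permutation p = 0.357). The values of r were 0.18 in the low range (exact p = 0.65, n = 6) and 0.58 in the high range (exact p = 0.158, n = 6). Both groups are pooled in these values, and both genes had higher fitted values with TUDCA.

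The homeostatic chemokines organise lymphoid tissue and stem cell niches, and their 5 measured members had a median of −0.04, with none passed in limma and none at an unadjusted p under 0.05. Cxcl12, the stromal ligand of CXCR4, ranged from 7.31 to 8.20 with a median of 7.69 with TUDCA and from 7.34 to 8.15 with a median of 7.69 with vehicle. Its difference was 0.04 with a 95% interval from −0.29 to 0.37 (adjusted p = 0.954). Cxcr4 ranged from 6.75 to 7.22 (median 6.97) with TUDCA and from 6.65 to 7.03 (median 6.76) with vehicle, with overlapping groups and a difference of 0.14 ± 0.09 (SE, adjusted p = 0.544). Cxcl13, the B cell follicle chemokine, ranged from 6.54 to 7.53 (median 7.03) with TUDCA and from 6.79 to 7.81 (median 7.04) with vehicle, a difference of −0.18 ± 0.17 (SE, adjusted p = 0.718). Its receptor gene Cxcr5 differed by −0.07 (adjusted p = 0.788). Over the 12 arrays the pair was uncorrelated (r = −0.01, permutation p = 0.947, adjusted 0.947; rho = 0.02, permutation p = 0.958, adjusted 0.958), with r = −0.52 without vehicle replicate 5 and TUDCA replicate 2 (permutation p = 0.15). The values were 0.53 in the low range (exact p = 0.297, n = 6) and −0.37 in the high range (exact p = 0.517, n = 6). Ccr7, which guides dendritic and naive T cells to lymph nodes, ranged from 5.55 to 6.00 (median 5.76) with TUDCA and from 5.64 to 6.10 (median 5.71) with vehicle, a difference of −0.04 ± 0.11 (SE, adjusted p = 0.924). None of 11 B and plasma cell genes and none of 14 stromal genes passed, with 1 lower in each list at an unadjusted p under 0.05 (limma).

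Among the ligands of mucosal and skin epithelium, Cxcl14, a constitutive epithelial chemokine, stood lower on every TUDCA array than the vehicle mean of its range. Cxcl14 ranged from 7.37 to 7.81 (median 7.62) with TUDCA and from 7.60 to 8.03 (median 7.99) with vehicle. Only vehicle replicate 1 lay within the TUDCA values. The difference was −0.32 ± 0.10 (SE, adjusted p = 0.117), with −0.30 in the low and −0.34 in the high range. Without vehicle replicate 1 it was −0.37 and passed (adjusted p = 0.0437). Ccl28, the mucosal ligand of CCR10 that attracts plasma cells, ranged from 8.06 to 8.61 (median 8.20) with TUDCA and from 8.10 to 8.44 (median 8.21) with vehicle, a difference of 0.01 with a 95% interval from −0.19 to 0.22 (adjusted p = 0.974). Ccl20, which draws CCR6-bearing cells to lymphoid follicles of the gut, ranged from 5.55 to 6.12 (median 5.95) with TUDCA and from 5.75 to 6.21 (median 6.10) with vehicle, a difference of −0.13 ± 0.12 (SE, adjusted p = 0.691). The receptors Ccr6 (−0.06) and Ccr10 (−0.18) had adjusted p of 0.845 and 0.531, and Ccr10 too was below the vehicle mean of the range on all 6 TUDCA arrays. The 2 probe sets of the skin chemokine Ccl27a disagreed in sign, at −0.04 (17413054) and 0.26 (17424331), with adjusted p of 0.867 and 0.675. The second ranged from 4.29 to 5.40 (median 4.70) with TUDCA and from 4.05 to 5.31 (median 4.35) with vehicle, with overlapping groups. Of 19 epithelial genes 1 rose, the simple epithelial keratin gene Krt8 (by 0.28), and 0 fell. With an unadjusted p under 0.05 (limma), 5 epithelial genes were higher and 3 lower. Ccl25 and Ccr9, the small-intestinal homing pair outside the members, differed by −0.14 (adjusted p = 0.374) and −0.32 (adjusted p = 0.191).

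The ligands and receptors of eosinophils, type 2 and regulatory T cells had a median of −0.02 over 9 members, with none passed in limma and none at an unadjusted p under 0.05. Ccl17 (TARC), a ligand of CCR4, had the highest positive value of all members, 0.52 ± 0.32 (SE, adjusted p = 0.515). It ranged from 5.66 to 7.08 (median 6.06) with TUDCA and from 5.02 to 6.94 (median 5.51) with vehicle. Its high arrays were TUDCA replicates 1 and 5 and vehicle replicate 6, and the difference was 1.01 in the low and 0.03 in the high range. Ccl22, the other ligand of CCR4, gave −0.25 (adjusted p = 0.461). Their receptor gene Ccr4 ranged from 3.36 to 3.71 (median 3.62) with TUDCA and from 3.21 to 3.60 (median 3.45) with vehicle, a difference of 0.08 ± 0.08 (SE, adjusted p = 0.706). The eotaxin Ccl11, which attracts eosinophils and is prominent in normal gut, ranged from 7.01 to 8.12 (median 7.73) with TUDCA and from 7.36 to 8.39 (median 7.59) with vehicle, a difference of −0.14 ± 0.18 (SE, adjusted p = 0.797). Ccl24 (0.07), Ccr3 (−0.02), Ccl1 (−0.16) and Ccr8 (−0.18) had adjusted p of 0.582 or more, and Ccl26 was at 0.00 (adjusted p = 0.996). None of 11 eosinophil and mast cell genes passed, with 1 higher at an unadjusted p under 0.05 (limma).

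Of the membrane-bound and C-type chemokines, none of the 6 passed in limma, and 1 had an unadjusted p under 0.05, Cx3cl1 (fractalkine). Cx3cl1 is made by epithelium and endothelium, tethers cells that carry CX3CR1, and ranged from 8.07 to 8.55 (median 8.30) with TUDCA and from 8.37 to 8.70 (median 8.45) with vehicle. All 6 TUDCA arrays were below the vehicle mean of their range, and only replicate 3 was above the lowest vehicle arrays. The difference was −0.26 ± 0.08 (SE, adjusted p = 0.126), with −0.19 in the low and −0.33 in the high range, and it passed without TUDCA replicate 3 (adjusted p = 0.0465). Its receptor gene Cx3cr1, a marker of resident gut macrophages, was likewise below on all 6 arrays. Cx3cr1 ranged from 6.81 to 7.04 (median 6.85) with TUDCA and from 6.83 to 7.24 (median 7.07) with vehicle, a difference of −0.15 ± 0.08 (SE, adjusted p = 0.444). None of 12 endothelial genes passed, and none had an unadjusted p under 0.05.

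Xcl1 (lymphotactin), which CD8 T and NK cells release to attract cross-presenting dendritic cells, had a median of 6.79 with TUDCA (5.77 to 7.36) and of 6.88 with vehicle (6.66 to 7.44). Its difference was −0.38 ± 0.22 (SE, adjusted p = 0.473), at −0.94 in the low and 0.18 in the high range (interaction unadjusted p = 0.00452, adjusted p = 0.516). The high arrays of Xcl1 were vehicle replicate 1 and TUDCA replicate 6, and the groups overlapped. Its receptor gene Xcr1 ranged from 5.08 to 5.51 (median 5.19) with TUDCA and from 5.10 to 5.27 (median 5.20) with vehicle, a difference of 0.04 ± 0.09 (SE, adjusted p = 0.907). Cxcl16, a membrane-bound ligand of CXCR6, ranged from 8.51 to 9.04 (median 8.75) with TUDCA and upward from 8.46 (median 8.74) with vehicle, a difference of 0.04 ± 0.10 (SE, adjusted p = 0.917). Cxcr6, carried by tissue-resident T cells, gave −0.23 (adjusted p = 0.467). The mucosal chemokine Cxcl17, outside these roles, differed by −0.03 (adjusted p = 0.933).

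By fitted value, the number ranges were closer for some members than for others, which the interaction test did not establish for any member after adjustment. The low range holds only 2 TUDCA arrays, replicate 2 among them. The difference in the high range minus that in the low range was between −0.14 and 0.07 for Cxcl14, Cx3cl1, Ccl6 and Ccl9. It was 0.82 for Cxcl10, 0.93 for Cxcl11, 1.64 for Ccl3, 1.13 for Xcl1, 1.18 for Ccl5, 0.90 for Cxcl9 and 0.61 for Ccl4. The interaction of treatment and range passed adjustment for 0 of 51 members and 0 of 23991 probe sets in limma. At an unadjusted p under 0.05 it passed for 6 members, or 11.8%, against 7.68% of all probe sets, and these were the last 5 named and the Ccl27a probe set 17424331. Without TUDCA replicate 2 the median member difference was −0.08, and without TUDCA replicates 1 and 2 together it was −0.09.

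**Figure D4:**
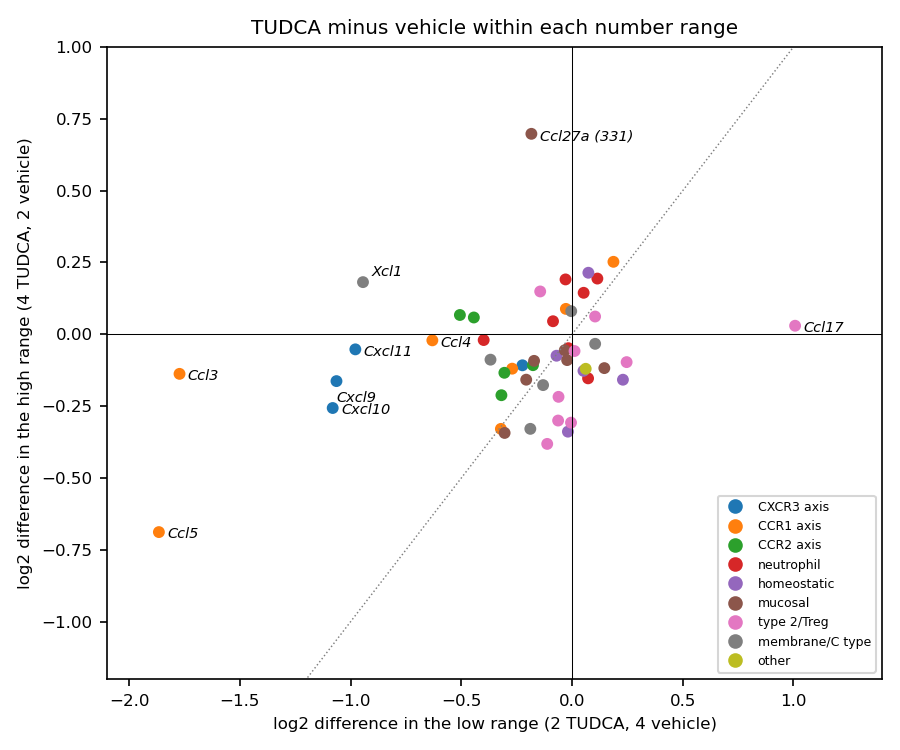
Log2 difference (TUDCA minus vehicle) of each member probe set in the low number range (horizontal axis) and in the high number range (vertical axis), coloured by role, with a dotted line of equality. Ccl5 is below 0 on both axes (−1.87 and −0.69), and Ccl3 (−1.77 and −0.14) and Xcl1 (−0.94 and 0.18) lie far from the line.

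**Figure D5:**
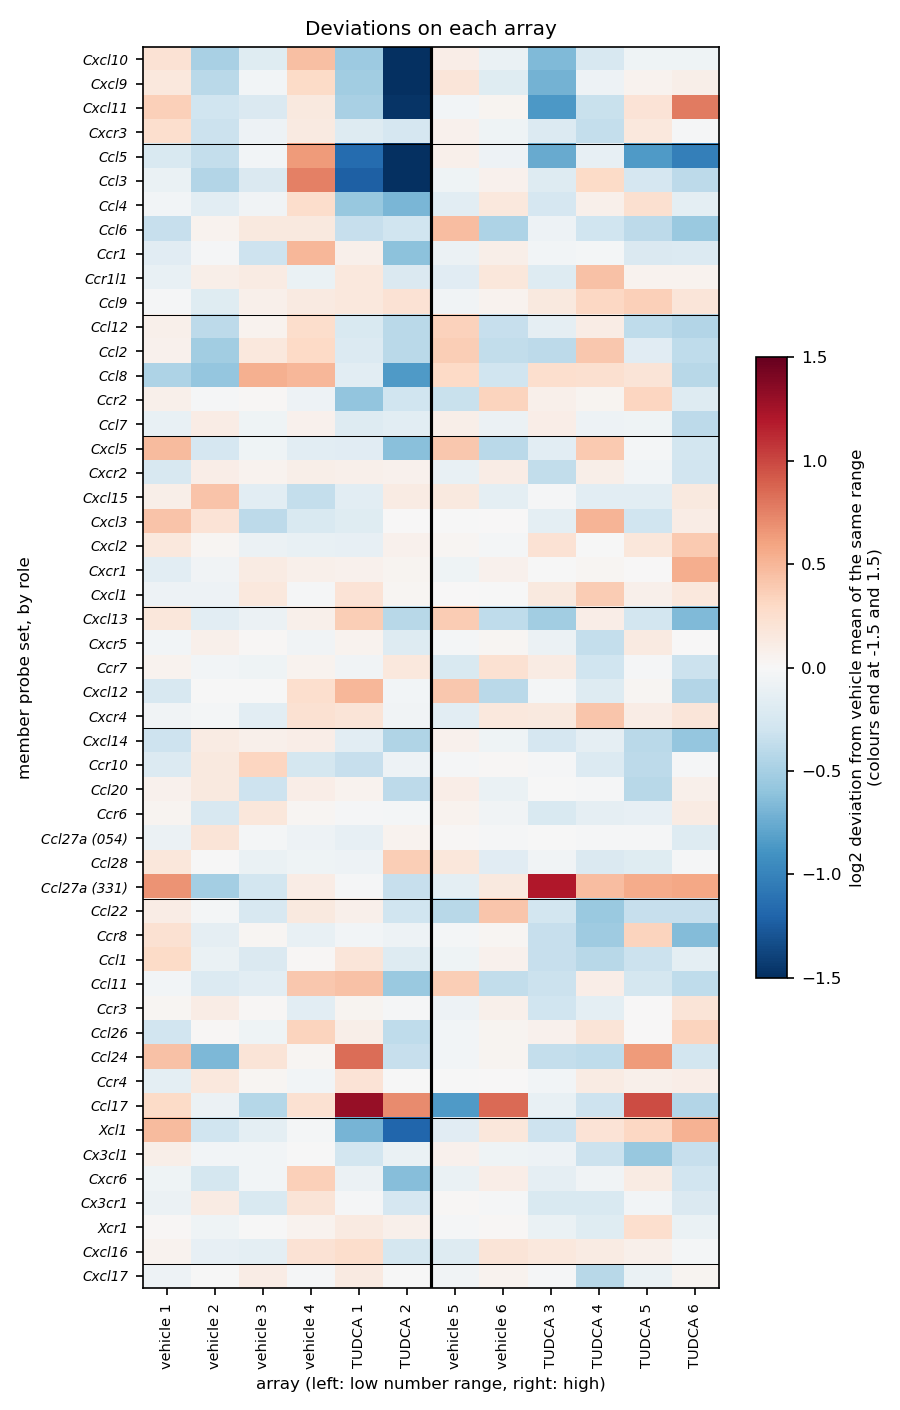
Deviation of each member probe set on each array from the mean of the vehicle arrays in its range, in log2 units, blue for lower and red for higher, with members grouped by role. The column of TUDCA replicate 2 is blue for the CXCR3 ligands, Ccl5, Ccl3 and Xcl1, and Ccl5 is blue on all 6 TUDCA arrays.

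Genes that act upstream and downstream of the members were read from lists of the pathway. Of 24 measured inducers, trimming proteases and binding proteins, 2 fell and 0 rose, with a median of −0.12. By an unadjusted p under 0.05 (limma), 9 were lower and 0 higher. Of all probe sets, 1.52% fell past the adjusted threshold and 6.84% were lower by unadjusted p. Among the brighter probe sets these shares were 2.88% and 10.7%, and only 4 of the 24 genes were dimmer. TUDCA replicate 2 had the lowest list mean of the TUDCA arrays, and values of these genes without it are not given here. Irf1, an interferon-induced transcription factor, ranged from 9.27 to 9.74 with TUDCA and from 9.82 to 10.07 with vehicle, without overlap, and fell by 0.50 ± 0.08 (SE, adjusted p = 0.0037). Dpp4, a brush border peptidase that trims the amino terminus of several chemokines, CXCL10 and CXCL12 among them, ranged from 11.08 to 11.51 with TUDCA and from 11.52 to 11.90 with vehicle. It also had separate groups and fell by 0.45 ± 0.06 (SE, adjusted p = 0.00172). Relb (−0.32, adjusted p = 0.0713), Tnf (−0.43, adjusted p = 0.124) and Ifng (−0.30, adjusted p = 0.16), which encode an NF-kappaB subunit and inducing cytokines, did not pass.

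Of 33 measured genes that transmit receptor signals, 1 rose and 2 fell, with a median of −0.10. By an unadjusted p under 0.05 (limma), 8 were lower and 2 higher. Of all probe sets, 1.00% rose and 1.52% fell past the adjusted threshold, and by unadjusted p 7.24% were higher and 6.84% lower. Only 2 of the 33 genes lay below the median brightness, and of the brighter probe sets 10.7% were lower by unadjusted p. Here too TUDCA replicate 2 had the lowest list mean of the TUDCA arrays. Rgs2, which turns off signalling through G proteins, rose by 0.53 ± 0.13 (SE, adjusted p = 0.0482), with medians of 9.19 with TUDCA and 8.74 with vehicle. Rgs14, a related regulator, fell by 0.52 ± 0.10 (SE, adjusted p = 0.0156), from 5.63 to 6.01 with TUDCA against 6.06 to 6.52 with vehicle. Elmo1, which links receptors to Rac and the actin cytoskeleton, fell by 0.27 ± 0.05 (SE, adjusted p = 0.0139), from 8.24 to 8.42 with TUDCA against 8.49 to 8.66 with vehicle. In both Rgs14 and Elmo1 the groups did not overlap, and in Rgs2 they did. Arrb1 (−0.28, adjusted p = 0.129), Rac2 (−0.49, adjusted p = 0.183) and Grk6 (0.17, adjusted p = 0.185) did not pass. Of 11 atypical and related receptors and platelet CXC ligands none passed in limma, with 3 lower at an unadjusted p under 0.05 and a median of −0.06. Ccrl2 differed by −0.27 (adjusted p = 0.304) and the scavenging receptor gene Ackr2 by −0.18 (adjusted p = 0.338).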

How the data were processed

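The deposited values are log2 expression, 1 for each probe set on each array, made with RMA and the package oligo per the submitters' processing notes, which give no versions. RNA was isolated with a column kit, amplified with a low-input whole-transcript kit, labelled with biotin and hybridised to Affymetrix mouse arrays, per the labels' protocols. Filtering of probe sets and the array's genome build are not given in the sources used here. In the platform annotation 21557 probe sets had 1 gene name, 787 several and 1647 none. Quantile normalisation, part of RMA, hides any shift common to all transcripts.

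Differences were fitted over all probe sets with limma 3.58.1 in R 4.3.3 (lmFit, eBayes with a trend), with treatment and number range as terms, Benjamini-Hochberg adjustment over all probe sets, two-sided tests and an adjusted p threshold of 0.05. The code was tested on simulated data. Correlations were computed for 6 pairs over the arrays of both groups together, with two-sided permutation tests. The members, role, pathway and marker lists were chosen with earlier results of these data known. Every member is named. Full values are given for members past the threshold, the 10 with the smallest p per direction and a fixed set of well-known members, and in the lists for genes past the threshold and up to 3 more per pathway list by smallest p. Replicate numbers are shared by the groups, but the deviations of same-numbered arrays correlated between −0.06 and 0.26, so the numbers were not taken as pairs. Alternatives were other normalisations, variance models, filters, blocks, ranges and omitted arrays.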

Additional observations from a re-analysis of the deposited data

Results flagged for a closer look

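In 11 of 102 groups of 6 arrays, 1 per member probe set and treatment, the highest or lowest array stood far from the other 5, by a gap over 0.625 of the group's range. Chance gives about 1 group in 20. Among the vehicle arrays, Ccl17 was highest on replicate 6 (6.94, the others 5.02 to 5.73) and so was Ccr7 (6.10, the others 5.64 to 5.76). Ccl27a (probe set 17413054) was highest on replicate 2 (5.33), Cxcl1 on replicate 3 (5.32) and Cxcl13 on replicate 5 (7.81, the others 6.79 to 7.12). Cxcl14 was lowest on vehicle replicate 1 (7.60, the others 7.89 to 8.03). Among the TUDCA arrays, Ccl28 was highest on replicate 2 (8.61, the others 8.06 to 8.25), while Ccr1 was lowest there (5.21, the others 5.79 to 5.98). Ccr8 was highest on replicate 5 (5.67), Cxcr1 on replicate 6 (6.33, the others 5.74 to 5.81), and Cxcl17 was lowest on replicate 4 (5.46).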

How the results depend on the processing

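The count of members lower was 0 without the number range, in the high range alone, with robust variances and without TUDCA replicates 1 and 2, an alternative chosen after seeing the data. Of all 23991 probe sets, 309, 3, 366 and 13 were lower there, against 364 in the reported fit. It was 3 in the low range alone (331 of all probe sets), where Ccl3 and Ccl4 also passed, and between 0 and 2 when 1 array was left out (151 to 417). With the replicate number as a block and no number range, 2 members were lower, Ccl3 with Ccl5 (409 of all probe sets), and 1 was higher, Ccl9 (213). With the block and the number range the counts stayed at 0 higher and 1 lower (85 and 190). The median member difference ran from −0.19 to −0.08 and moved by less than the spread between vehicle arrays (SD 0.064). The −0.19 is the median of the 27 brighter members alone, a set unlike the 51. Without TUDCA replicate 2 the median was −0.08, against −0.14 in the reported fit. Of 51 member probe sets 30 kept their sign in all alternatives, and in the 21 others no value on either side of 0 passed.

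The sign turned as follows. Without the number range, with and without the block, were Ccl28 (−0.022), Ccr3 (0.013), Cxcl12 (−0.013) and Cxcl15 (0.00072). With the block and the number range were Ccl28 (−0.018), Ccr3 (0.022), Ccr6 (0.038) and Cxcl17 (0.040). The low range alone gave Ccl26 (−0.14), the Ccl27a probe set 17424331 (−0.18), Ccr1l1 (−0.028), Ccr3 (0.011), Ccr7 (0.052), Cxcl16 (−0.0037), Cxcl17 (0.062), Cxcl2 (−0.029) and Cxcr2 (0.072). The high range alone, and omission of TUDCA replicates 1 and 2, gave Ccl24 (−0.097), Ccl28 (−0.12), Ccl8 (0.067), Ccr2 (0.059), Cxcl12 (−0.16), Cxcl3 (0.046), Xcl1 (0.18) and Xcr1 (−0.033). Array weights gave Ccl11 (0.0072), and renewed quantile normalisation Ccl26 (−0.0089) and Ccr1l1 (−0.0023). With 1 array left out, values ran from −0.35 to 0.027 for Ccl11, −0.19 to 0.25 for Ccl24, −0.050 to 0.13 for Ccl26, −0.10 to 0.11 for Ccl28, −0.047 to 0.12 for Ccr1l1, −0.062 to 0.016 for Ccr3 and −0.10 to 0.070 for Ccr7. They ran from −0.11 to 0.24 for Cxcl12, −0.37 to 0.0035 for Cxcl13, −0.090 to 0.035 for Cxcl15, −0.050 to 0.15 for Cxcl16, −0.077 to 0.022 for Cxcl17, −0.098 to 0.050 for Cxcl3, −0.085 to 0.029 for Cxcr2 and −0.0062 to 0.062 for Xcr1. The causes were not tested. Scanner files were not used here, so the background correction was not varied, and dim members have compressed differences.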
